A study of Mus musculus with 9 samples.

Results

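The genes described are 37 named members of the interferon response, taken from a list of symbols and not chosen by a measured threshold. They comprise receptor chains, transcription factors, RNA sensors and antiviral or antimicrobial effectors. Of these, 36 were measured, through 59 probes, among 17889 genes and 25649 probes tested. Isg15, the ubiquitin-like modifier, was not analysed here. Expression was measured in neonatal ovaries of Swiss mice, excised 3 to 4 days after birth and kept in culture for 96 hours (4 days). The 3 groups were 0.01% acetone (the vehicle), 50 nM DMBA (7,12-dimethylbenz[a]anthracene) and 1 uM BaP (benzo[a]pyrene), with 3 Illumina mouse Ref-8 v2 arrays each. Both compounds are polycyclic aromatic hydrocarbons, which cells convert to metabolites that bind DNA. Per the labels, every group was grown in the same medium with fetal calf serum, basic fibroblast growth factor, leukemia inhibitory factor and stem cell factor, and the DMBA concentration was picked in pilot work to give overt toxicity. The doses of DMBA and BaP differ. Whether the 3 arrays per group stand for separate animals, pools or cultures is not said in the labels, and p-values then cover only the spread among these arrays, perhaps a technical one. The sources used here do not say on which beadchip each array lay, so a chip batch could not be tested.

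Interferons are secreted proteins that cells release on sensing foreign or misplaced nucleic acid. Type I interferons bind the IFNAR receptor and, through JAK kinases, activate a complex of STAT proteins with IRF9 that binds the interferon-stimulated response element (ISRE). Interferon-gamma acts through its own receptor and a STAT dimer that binds the gamma-activated site (GAS). The induced genes include enzymes and GTPases that block virus replication or attack pathogen vacuoles, and in whole tissue they can come from resident macrophages as well as from other cells.

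The bases before the transcription start are shown for 5 of the 6 members of which a probe passed the test in any comparison (Irf9, the sixth, held neither motif in its 2 windows), and for Ifit1, a relative of Ifit3 that did not pass. They are RefSeq sequences of build GRCm38.p6, written 5′ to 3′ on the strand of the gene and ending 1 base before the start. Capitals mark ISRE-type letters (GAAANNGAAA, or TTTCNNTTTC on the opposite strand) and GAS-type letters (TTCNNNGAA, which reads alike on both strands).
Rsad2 (chr12:26456453-26456702, minus strand): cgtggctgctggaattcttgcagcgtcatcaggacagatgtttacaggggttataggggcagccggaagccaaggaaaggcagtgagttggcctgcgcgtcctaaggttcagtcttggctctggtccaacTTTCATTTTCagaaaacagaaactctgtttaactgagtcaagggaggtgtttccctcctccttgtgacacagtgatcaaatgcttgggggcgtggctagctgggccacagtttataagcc
Ifit3 (chr19:34583279-34583528, plus strand): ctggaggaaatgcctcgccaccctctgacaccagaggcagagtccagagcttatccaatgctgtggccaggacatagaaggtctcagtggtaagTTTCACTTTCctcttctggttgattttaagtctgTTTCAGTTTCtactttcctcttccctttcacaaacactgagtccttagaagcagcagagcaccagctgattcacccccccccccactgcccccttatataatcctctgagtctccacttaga
Igtp (chr11:58199306-58199555, plus strand): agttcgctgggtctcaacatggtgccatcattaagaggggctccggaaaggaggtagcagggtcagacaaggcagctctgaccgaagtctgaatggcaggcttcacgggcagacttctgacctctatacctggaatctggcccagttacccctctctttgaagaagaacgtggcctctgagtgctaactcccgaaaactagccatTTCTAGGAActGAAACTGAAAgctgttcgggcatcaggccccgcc
Eif2ak2 (chr17:78882573-78882822, minus strand): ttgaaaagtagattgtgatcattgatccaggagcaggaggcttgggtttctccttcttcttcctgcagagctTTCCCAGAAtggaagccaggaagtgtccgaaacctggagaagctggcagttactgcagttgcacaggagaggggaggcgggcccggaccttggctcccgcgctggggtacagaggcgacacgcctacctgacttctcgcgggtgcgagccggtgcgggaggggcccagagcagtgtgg
Irf1 (chr11:53769764-53770013, plus strand): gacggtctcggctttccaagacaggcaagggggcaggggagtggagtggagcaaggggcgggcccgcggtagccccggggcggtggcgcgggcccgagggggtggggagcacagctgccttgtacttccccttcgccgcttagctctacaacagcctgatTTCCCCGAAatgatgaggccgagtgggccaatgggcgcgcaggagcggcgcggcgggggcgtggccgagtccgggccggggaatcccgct
Ifit1 (chr19:34640639-34640888, plus strand): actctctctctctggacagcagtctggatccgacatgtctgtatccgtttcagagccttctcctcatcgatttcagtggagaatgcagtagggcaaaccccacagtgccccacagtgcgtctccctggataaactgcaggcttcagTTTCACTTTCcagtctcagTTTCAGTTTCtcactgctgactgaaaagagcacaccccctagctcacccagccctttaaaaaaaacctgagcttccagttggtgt

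In Rsad2 the ISRE letters began 120 bases before the start, in Ifit3 at 156 and 122 bases, and in Ifit1 at 104 and 85 bases. Igtp held GAS letters at 45 and ISRE letters at 34 bases before its start. Eif2ak2 held GAS letters at 178 bases before the start, and ISRE letters (GAAAACGAAA) at base 19 of the transcript, outside the stretch shown. The window of Irf1 shown, 1 of 2, held GAS letters at 90 bases and no ISRE letters. Windows of 300 bases (250 before and 50 after the start) were found for 27 of the 36 measured members, in 33 windows. ISRE letters were found for 14 of these 27 members, in 42.4% of the member windows, against 3.44% of all 32851 mouse windows. GAS letters were found for 10 members, in 30.3% of the member windows, against 8.3% of all windows. The 2 motifs shared bases only in Bst2, by 3 bases. Such a match is a description of letters, not a binding site. Members with ISRE letters had a median log2 difference of 0.13 with DMBA and 0.01 with BaP, and those with a window but no such letters 0.055 and 0.08. No window was at hand for Oas2, Usp18, Rtp4, Iigp1, Mx1, Mx2, Parp9, Parp14 and Dhx58.

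Levels are log2 signals after background correction and quantile normalization, and each gene is given by its brightest probe unless another is named. The median signal of an array was 105.8 to 133.7 with acetone, 105.2 to 126.0 with DMBA and 94.7 to 104.1 with BaP, and DMBA replicate 3 deviated most from its group mean (SD 0.15 over genes, against 0.08 to 0.12 on the other arrays). The brightest of 7 Y-chromosome genes, which ovaries do not carry, was Ddx3y at 6.59. It stood alone above the median level of all genes (6.42), with Uty at 6.36 and the others at 5.87 to 6.005. At or below 6.59 lay 16 of the 36 members, and a change there may not well show. All but 1 of 10 oocyte markers and all but 1 of 7 granulosa cell markers were above that level. Arrays were also scaled to a common median in place of quantile normalization. Genes above the median level then had median differences of -0.38 (BaP against acetone), -0.29 (BaP against DMBA) and -0.09 (DMBA against acetone). With quantile normalization these medians were -0.016, 0.011 and -0.027. BaP values of well-measured members therefore shift with the scaling.

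With DMBA, 3 interferon response genes rose: Rsad2, Ifit3 and Igtp, by 1.43- to 1.48-fold. With BaP, 2 rose, Rsad2 and Eif2ak2, each by 1.23-fold, though under median scaling Eif2ak2 turned lower. Between the compounds 1 member differed: Igtp was lower with BaP than with DMBA. In limma, the DMBA count was 3 of 36 higher (8.33%), against 0.704% of all genes, and 0 lower, against 0.307%, with 8 higher and 2 lower at an unadjusted p under 0.05 (4.28% and 5.97% of all genes). The BaP count was 2 higher (5.56%), against 4.82% of all genes, a share near the background, and 0 lower, against 5.9%. At an unadjusted p under 0.05, 6 members were higher and 3 lower with BaP (9.58% and 11.9% of all genes). For BaP against DMBA limma called 0 higher, against 0.671% of all genes, and 1 lower, against 0.783%, with 0 and 6 at an unadjusted p under 0.05 (6.16% and 5.53% of all genes). The median log2 difference over members was 0.061 with DMBA and 0.015 with BaP, against -0.013 and -0.005 over all genes (0.00 and -0.17 over members under median scaling). Among the 23 members above the median level of all genes the medians were 0.15 and 0.06, and among the 13 below it -0.03 and -0.03. The 2 comparisons share the acetone arrays.

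The DMBA count changed with the arrays used. It was 0 without any 1 of the 3 acetone arrays, where the differences were still 0.51 to 0.59 for Rsad2, 0.52 to 0.53 for Ifit3 and 0.49 to 0.56 for Igtp. It was 1 without DMBA replicate 2 (51 genes called of all) and 6 without DMBA replicate 3 (812 of all). Under median scaling it was 0, where limma called 3 genes of all. The BaP count was 0 without acetone replicate 1 or BaP replicate 2, 1 without acetone replicate 2, and 0 higher and 8 lower under median scaling. These 8 were Adar, Bst2, Gbp3, Igtp, Irf9, Irgm1, Parp14 and Stat2. Of all 17889 genes, limma called 253 higher and 4877 lower there. Between the compounds 9 members were lower with BaP than with DMBA under median scaling, namely Adar, Bst2, Dhx58, Gbp2, Gbp3, Ifit3, Igtp, Parp14 and Rsad2. In that comparison limma called 53 of all genes higher and 2019 lower.

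**Figure D1:**
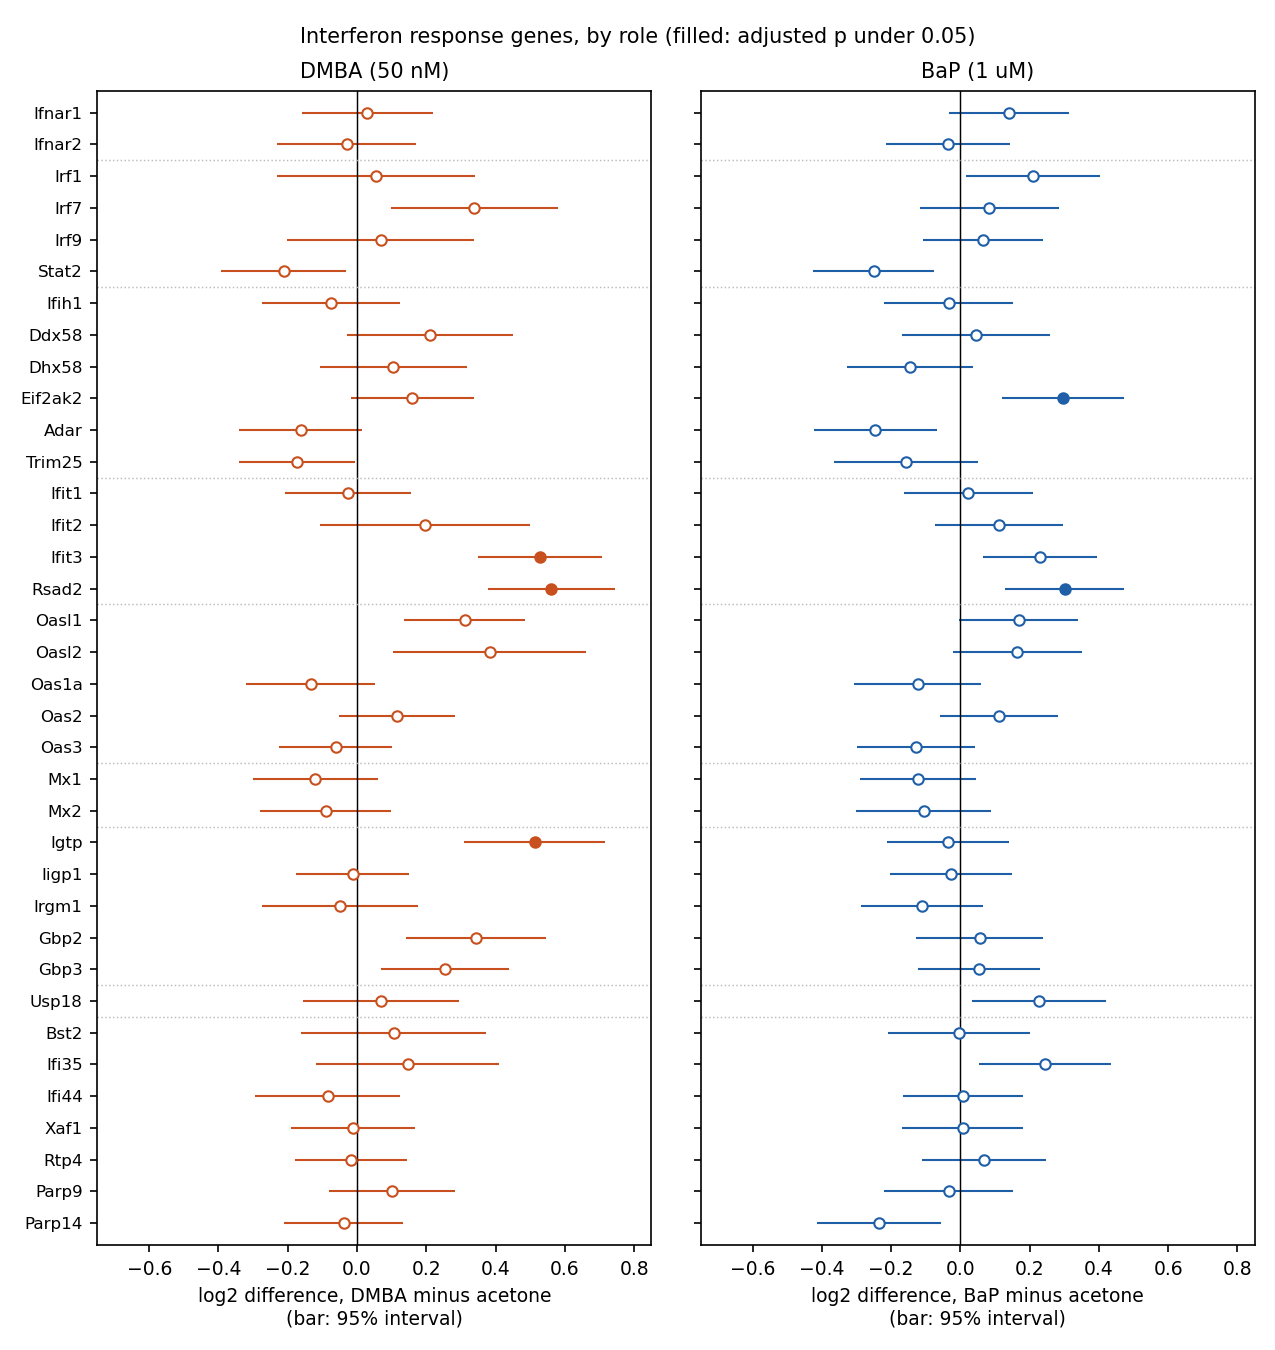
Log2 difference (x axis) with its 95% interval for each of the 36 members, DMBA minus acetone on the left and BaP minus acetone on the right, ordered by role from the receptors to other induced genes. Filled points passed an adjusted p of 0.05: Rsad2, Ifit3 and Igtp with DMBA, Rsad2 and Eif2ak2 with BaP (Eif2ak2 is at -0.19 under median scaling).

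Ifnar1 and Ifnar2 encode both chains of the type I interferon receptor. The level of Ifnar1 was 5.73 to 6.00 over the 9 arrays, in the range of the Y-chromosome genes, and that of Ifnar2 was 7.18 to 7.45. Their differences were 0.03 and -0.03 with DMBA and 0.14 and -0.04 with BaP, none past the test. The groups overlapped for both chains.

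Among the transcription factors, Irf7, the factor that drives production of type I interferon, was at 6.44, 6.25 and 6.42 with acetone, 6.61, 6.56 and 6.95 with DMBA, and 6.45, 6.23 and 6.68 with BaP. All DMBA arrays were above all acetone arrays, by 0.34 on average (SE 0.11, adjusted p = 0.253), with replicate 3 far above the others, and the BaP arrays overlapped both other groups. Its mean level of 6.51 lay below the brightest Y-chromosome gene. Stat2, the STAT partner of IRF9, was at 7.26, 7.33 and 7.44 with acetone, 7.08, 7.21 and 7.09 with DMBA, and 7.04, 7.19 and 7.05 with BaP. Every treated array was below every acetone array, with differences of -0.21 (SE 0.08, adjusted p = 0.374) and -0.25 (SE 0.09, adjusted p = 0.0587), neither past the test. The BaP difference of Stat2 passed under median scaling, at -0.52, and when only genes above the median level were tested. Irf9, the DNA-binding subunit, gave 0.07 with either compound by its brightest probe, and -0.42 with BaP under median scaling.

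Irf1, a factor induced strongly by interferon-gamma, had 5 probes that did not give one answer, all matched to the same RefSeq transcript. Its brightest probe was at 11.18, 11.04 and 10.89 with acetone, 11.33, 11.15 and 10.80 with DMBA, and 11.16, 11.14 and 11.44 with BaP, with overlapping groups and differences of 0.055 and 0.21 that did not pass and turned to -0.07 and -0.20 under median scaling. The probe at a mean level of 8.02 was at 7.55, 7.69 and 7.55 with acetone, 8.19, 8.10 and 8.39 with DMBA, and 8.25, 8.26 and 8.23 with BaP. The probe at a mean level of 8.01 was at 7.76, 7.44 and 7.52 with acetone, 8.07, 8.13 and 8.43 with DMBA, and 8.12, 8.35 and 8.29 with BaP. On both of these probes every treated array was above every acetone array, and the compounds overlapped. Adjusted over all probes in limma, the probe at 8.02 rose by 0.63 with DMBA (SE 0.09, adjusted p = 0.00992) and by 0.65 with BaP (SE 0.08, adjusted p = 4.02e-06). That at 8.01 rose by 0.64 (SE 0.11, adjusted p = 0.0265) and 0.68 (SE 0.09, adjusted p = 1.19e-05), with BaP against DMBA differences of 0.02 and 0.04 (95% intervals -0.18 to 0.22 and -0.20 to 0.28). The authors' deposited table gives these probes 1.47-fold with DMBA each, and 1.48- and 1.51-fold with BaP. The other probes, at mean levels of 9.90 and 6.42, gave 0.19 and 0.16 with DMBA and -0.01 and 0.13 with BaP. Under median scaling the BaP differences of the probes at 8.02 and 8.01 were 0.24 and 0.29 and those with DMBA 0.60 and 0.63, none past the test.

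A dimmer Irf9 probe, at a mean level of 7.17, was at 7.13, 6.80 and 6.88 with acetone, 7.17, 7.25 and 7.22 with DMBA, and 7.23, 7.44 and 7.43 with BaP. Every treated array was above every acetone array. It rose by 0.43 with BaP (SE 0.09, adjusted p = 0.00287 over all probes), and gave 0.28 with DMBA (SE 0.09, adjusted p = 0.266). Under median scaling its BaP difference was 0.17 and did not pass. Over all 59 member probes, limma called 5 higher with each compound, against 0.799% (DMBA) and 4.93% (BaP) of all probes, and 0 lower with either (0.242% and 4.95%). Between the compounds it called 0 probes higher (0.511% of all probes) and 1 lower with BaP than with DMBA (0.62%). At an unadjusted p under 0.05, 13 member probes were higher and 2 lower with DMBA (5.38% and 5.16% of all probes), 11 higher and 3 lower with BaP (9.99% and 10.9%), and 0 higher and 7 lower between the compounds (5.36% and 5.31%).

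**Figure D2:**
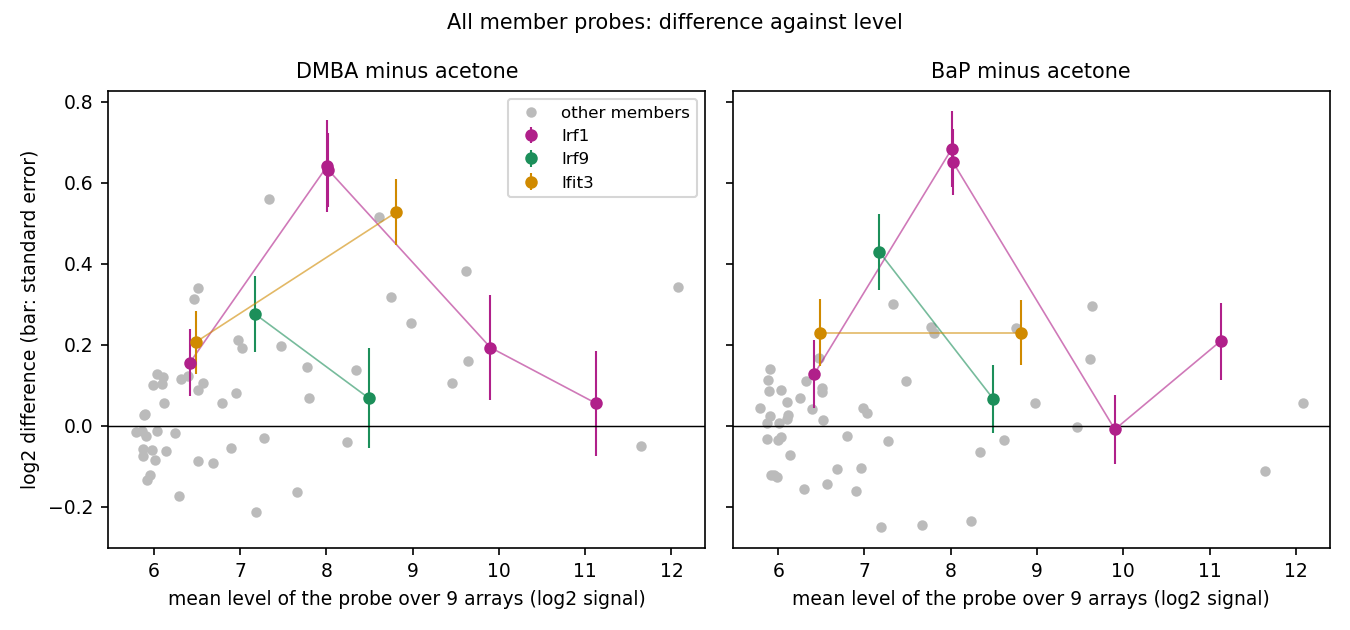
Log2 difference (y axis, bars are standard errors of the marked probes) against the mean level of the probe over 9 arrays (x axis, log2 signal) for all 59 member probes, DMBA minus acetone on the left and BaP minus acetone on the right. Lines join the probes of Irf1, Irf9 and Ifit3: the Irf1 probes at 8.02 and 8.01 lie at 0.63 and 0.64 with DMBA, far from the brightest Irf1 probe at 0.055.

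Among the RNA sensors and enzymes of double-stranded RNA, Eif2ak2 encodes PKR, the kinase that halts translation on binding double-stranded RNA. Its level was 9.40, 9.47 and 9.59 with acetone, 9.70, 9.66 and 9.59 with DMBA, and 9.67, 9.83 and 9.85 with BaP. All BaP arrays were above all acetone arrays, while the lowest DMBA array barely exceeded the highest acetone array. Eif2ak2 rose by 0.30 with BaP (1.23-fold, SE 0.09, adjusted p = 0.0237) but turned to -0.19 under median scaling (adjusted p = 0.291), and gave 0.16 with DMBA (SE 0.08, adjusted p = 0.555). Its BaP call was lost without acetone replicate 1 (adjusted p = 0.129) or 2 (0.103), or BaP replicate 2 (0.0887) or 3 (0.0798), over settings that ranged from 0.0112 to 0.291.

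Adar, the enzyme that edits adenosine to inosine in double-stranded RNA, was at 7.89, 7.80 and 7.71 with acetone, 7.57, 7.68 and 7.67 with DMBA, and 7.43, 7.58 and 7.65 with BaP. Its brightest probe was lower on every treated array than on any acetone array, by -0.16 and -0.25 (adjusted p = 0.548 and 0.0699), neither past the test. The BaP difference passed under median scaling, at -0.61, and without BaP replicate 3, at -0.29. Its dimmer probes, at 6.80 and 6.52, gave 0.06 and -0.09 with DMBA and -0.03 and 0.02 with BaP. The cytoplasmic RNA sensor genes Ifih1 (MDA5) and Ddx58 (RIG-I), their regulator Dhx58 (LGP2) and Trim25, a ubiquitin ligase that acts on RIG-I, ranged from -0.17 to 0.21 with DMBA and from -0.16 to 0.05 with BaP, none past the test. Dhx58 was lower on every BaP array than on any DMBA array (-0.25, adjusted p = 0.239). The mean levels of Dhx58 (6.57), Ifih1 (5.88) and Trim25 (6.30) lay below the brightest Y-chromosome gene, where a change may not well show.

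Rsad2 encodes viperin, a radical SAM enzyme that makes an antiviral nucleotide. Its level was 6.94, 7.10 and 7.10 with acetone, 7.68, 7.63 and 7.51 with DMBA, and 7.36, 7.37 and 7.32 with BaP. The 3 groups did not overlap, with BaP between acetone and DMBA. Rsad2 rose by 0.56 with DMBA (1.48-fold, SE 0.08, adjusted p = 0.00995) and by 0.30 with BaP (1.23-fold, SE 0.08, adjusted p = 0.0175). BaP against DMBA gave -0.26 (95% interval -0.44 to -0.08, adjusted p = 0.196), and -0.56 under median scaling, which passed. Under median scaling the DMBA and BaP differences were 0.58 and 0.02, neither past the test. The DMBA call was lost without any 1 of the acetone arrays (adjusted p = 0.054 to 0.0792) or DMBA replicate 2 (0.0691), over settings from 3.37e-05 to 0.396. The BaP call was lost without acetone replicate 1 (0.119) or BaP replicate 2 (0.0593), over settings from 0.0144 to 0.9.

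Ifit3 belongs to a family of proteins that bind viral RNA or one another. Its level was 8.56, 8.54 and 8.57 with acetone, 8.99, 9.05 and 9.21 with DMBA, and 8.78, 8.81 and 8.78 with BaP. As for Rsad2, the groups did not overlap and the BaP arrays lay between the others. Ifit3 rose by 0.53 with DMBA (1.44-fold, SE 0.08, adjusted p = 0.0126), while BaP gave 0.23 (SE 0.08, adjusted p = 0.068) and BaP against DMBA -0.30 (95% interval -0.49 to -0.11, adjusted p = 0.152). Between the compounds the difference passed under median scaling, at -0.69. The BaP difference from acetone passed without background correction, at 0.21, and in the authors' log2 values, at 0.22, but turned to -0.25 under median scaling. Its dimmer probe, at a mean level of 6.48, gave 0.21 with DMBA and 0.23 with BaP. Under median scaling the DMBA difference was 0.44 (adjusted p = 0.618), and without any 1 of the acetone arrays or DMBA replicate 2 the adjusted p was 0.0676 to 0.12, over settings that ranged from 0.000894 to 0.618. Ifit2 gave 0.20 with DMBA, which passed without DMBA replicate 3 at 0.37, and 0.11 with BaP, which turned to -0.22 under median scaling. Ifit1, whose signal lay in the range of the Y-chromosome genes at 5.78 to 6.10, gave -0.03 and 0.02, so Ifit1 could not well show a change.

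**Figure D3:**
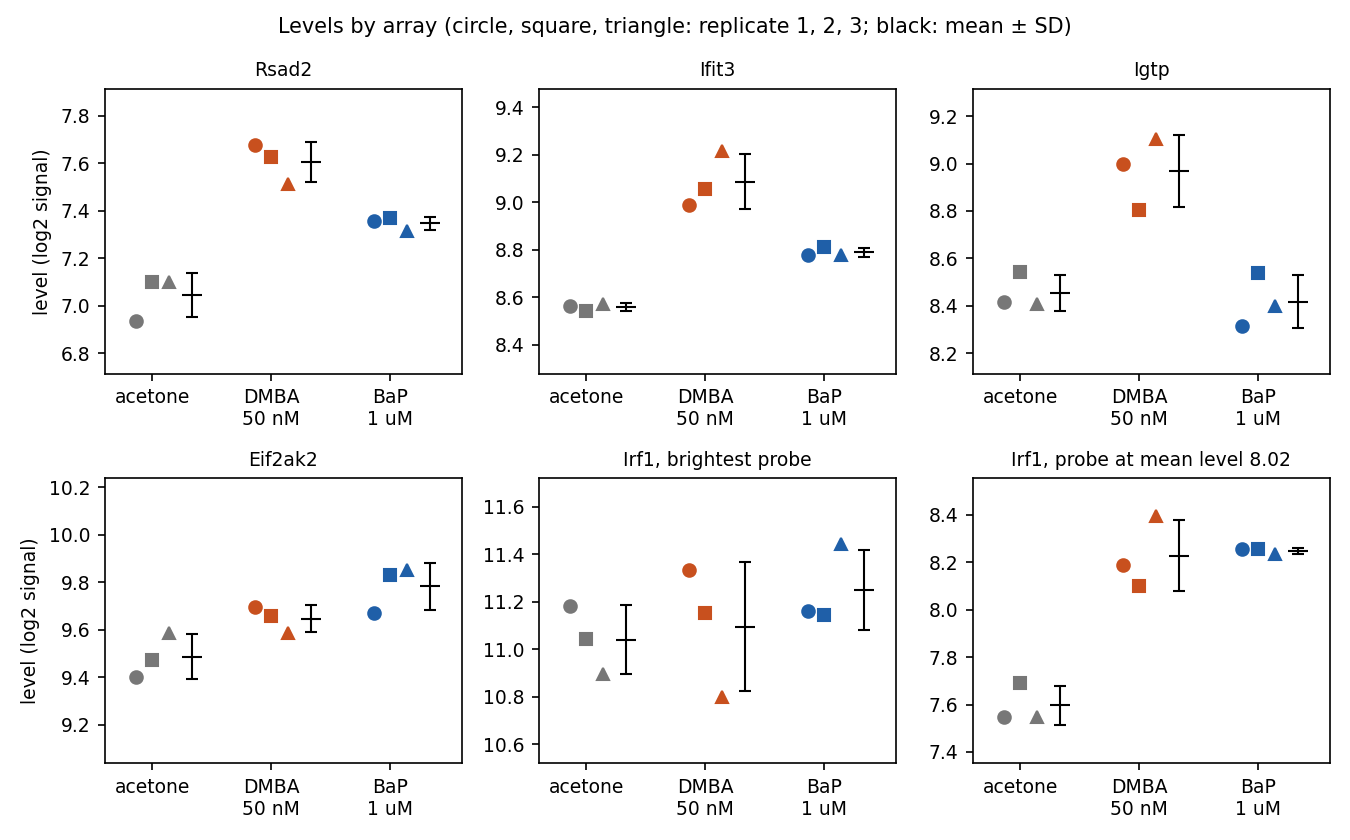
Level (log2 signal, y axis) on each array for Rsad2, Ifit3, Igtp, Eif2ak2 and for the Irf1 probes at mean levels of 11.13 and 8.02, by group, with mean ± SD in black. The Rsad2 and Ifit3 groups stand apart from one another, Igtp is high with DMBA only (8.80 to 9.10), and the Irf1 probes differ in pattern.

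The OAS enzymes make oligoadenylates that activate RNase L, and Oasl1 and Oasl2 are their relatives. Oasl2 was at 9.47, 9.55 and 9.28 with acetone, 10.04, 9.87 and 9.53 with DMBA, and 9.50, 9.55 and 9.75 with BaP. DMBA replicate 3 fell within the acetone range and the other DMBA arrays above it, and the difference was 0.38 (SE 0.13, adjusted p = 0.265). Without DMBA replicate 3 it passed, at 0.53, as did BaP against DMBA, at -0.36. The BaP difference of Oasl2 was 0.16, and -0.33 under median scaling. A dimmer Oasl2 probe, at a mean level of 7.025, gave 0.19 with DMBA (adjusted p = 0.65 over all probes) and 0.03 with BaP. On that probe DMBA replicate 3 was the highest array, at 7.38, and replicate 1, at 6.85, was below every acetone array (6.93 to 6.97). Leaving out replicate 3 therefore does not raise the difference on both probes. Oasl1 was higher on every array of DMBA and BaP than with acetone, by 0.31 (SE 0.08, adjusted p = 0.113) and 0.17 (adjusted p = 0.249). Its level of 6.47 lay below the brightest Y-chromosome gene, and its other probes gave 0.12 and 0.10 with DMBA. Oas1a, Oas2 and Oas3 were in the same low range and gave -0.13 to 0.12 with DMBA and -0.13 to 0.11 with BaP. None of the 5 genes passed with either compound. Mx1 and Mx2, dynamin-like GTPases that block virus replication, gave -0.12 and -0.09 with DMBA and -0.12 and -0.11 with BaP, also short of the test. The mean level of Mx1, 5.95, lay in the range of the Y-chromosome genes.

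Igtp is one of the immunity-related GTPases, which act at the vacuoles of intracellular pathogens and are induced chiefly by interferon-gamma. Its level was 8.42, 8.54 and 8.41 with acetone, 8.999, 8.80 and 9.10 with DMBA, and 8.32, 8.54 and 8.40 with BaP. All DMBA arrays were above all other arrays, and the acetone and BaP arrays overlapped. Igtp rose by 0.51 with DMBA (1.43-fold, SE 0.09, adjusted p = 0.0275) and gave -0.04 with BaP (95% interval -0.21 to 0.14, adjusted p = 0.879), which became -0.51 and passed under median scaling. It was lower with BaP than with DMBA by -0.55 (SE 0.10, 95% interval -0.77 to -0.33, adjusted p = 0.0186), and by -0.93 under median scaling. The DMBA call was lost under median scaling (0.42, adjusted p = 0.939), without background correction (0.0517), in the authors' log2 values (0.0587) and without any 1 of the acetone arrays (0.128 to 0.176), over settings from 0.00231 to 0.939. The BaP against DMBA call was lost without BaP replicate 1 (adjusted p = 0.116), 2 (0.0608) or 3 (0.128).

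The guanylate-binding proteins share these roles. Gbp2 was at 12.08, 11.98 and 11.78 with acetone, 12.33, 12.22 and 12.32 with DMBA, and 11.95, 12.09 and 11.96 with BaP. All DMBA arrays were above all other arrays, by 0.34 against acetone (SE 0.09, adjusted p = 0.134), with BaP against DMBA at -0.29 (adjusted p = 0.153), neither past the test. The first passed without DMBA replicate 3, at 0.33, and the second under median scaling, at -0.55. Its BaP difference from acetone was 0.06, and -0.32 under median scaling. The dimmer Gbp2 probes, at 6.14 and 6.03, gave -0.06 and 0.13 with DMBA and -0.07 and 0.09 with BaP, with overlapping groups. The brighter Gbp3 probe lay in the same order as the brightest of Gbp2, at 0.25 with DMBA (adjusted p = 0.267). With BaP it gave 0.055 (-0.43 under median scaling). The dimmer Gbp3 probe, at 8.75, gave 0.32 and 0.24. Irgm1, a regulator of the family, was at 11.52 to 11.85 over all arrays and gave -0.05 and -0.11 (-0.49 with BaP under median scaling, which passed). The dimmer Irgm1 probes, at 8.34 and 6.105, gave 0.14 and 0.12 with DMBA and -0.07 and 0.02 with BaP, with overlapping groups. Iigp1 was in the range of the Y-chromosome genes, at 5.88 to 6.11. Of these 5 GTPases 1 rose with DMBA and 0 with BaP in limma, with 3 and 0 higher at an unadjusted p under 0.05. Of all genes 0.704% and 4.82% were called higher, and 4.28% and 9.58% were higher at that unadjusted p.

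Usp18, the protease that removes ISG15 and dampens IFNAR signalling, gave 0.07 with DMBA and 0.23 with BaP (SE 0.09, adjusted p = 0.136), with every BaP array above every array of both other groups. Under median scaling the BaP difference turned to -0.16, and that between BaP and DMBA from 0.16 to -0.19. Ifi35, a cytoplasmic interferon-induced protein, was at 7.63, 7.55 and 7.75 with acetone, 7.50, 7.87 and 7.997 with DMBA, and 8.08, 7.85 and 7.73 with BaP. Its groups overlapped, with differences of 0.15 and 0.24 (adjusted p = 0.0977 with BaP). The BaP difference of Ifi35 passed without BaP replicate 3, at 0.32, and turned to -0.13 under median scaling. Parp14, an ADP-ribosyltransferase, was at 8.26 to 8.41 with acetone, 8.24 to 8.33 with DMBA and 7.96 to 8.21 with BaP. Its BaP arrays were below all others, by -0.24 against acetone (SE 0.09, adjusted p = 0.089), by -0.68 under median scaling and by -0.30 without BaP replicate 1, of which the last 2 passed. Bst2, the tether of budding virus particles, Ifi44, Xaf1, Rtp4 and the Parp14 relative Parp9 gave -0.09 to 0.11 with DMBA and -0.03 to 0.07 with BaP, and the levels of all of these but Bst2 lay in the range of the Y-chromosome genes.

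Counted without the test, groups did not overlap for 9 members higher with DMBA (6.69% of all genes) and 4 lower (8.96%). With BaP they did not overlap for 5 members higher (11.4% of all genes) and 4 lower (13.3%). Rsad2, Ifit3, Oasl1 and Eif2ak2 were among those higher with either compound, and Stat2, Adar and Mx1 among those lower with either. Between the compounds, groups did not overlap for 7 members lower with BaP than with DMBA (7.83% of all genes), namely Igtp, Ifit3, Gbp2, Rsad2, Gbp3, Dhx58 and Parp14, and for 1 higher (9.09%), Usp18. Of the members named here, Oasl1, Mx1 and Dhx58 lay below the brightest Y-chromosome gene. Under median scaling, 14 of the 34 members that had not passed with BaP changed sign, as did 4 of 33 with DMBA and 7 of 35 between the compounds. The share of all genes that changed sign was not counted.

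Other genes of the pathway were counted from lists of the same kind. Over all genes, limma called 0.704% higher and 0.307% lower with DMBA, 4.82% and 5.9% with BaP, and 0.671% and 0.783% between the compounds. Of 16 interferon genes themselves, among them Ifnb1, Ifng and Ifne, 15 were at or below the brightest Y-chromosome gene and limma called 0 in each comparison. In the exception, Ifna6, the level was 6.60 and the BaP difference 0.23 (adjusted p = 0.0863). Of 7 other receptor chains and kinases, 0 passed with DMBA and 3 fell with BaP. The kinase gene Jak2 fell by 0.39 (SE 0.09, adjusted p = 0.00373) and the interferon-gamma receptor genes Ifngr1 and Ifngr2 by 0.34 (SE 0.09, adjusted p = 0.00855) and 0.32 (SE 0.10, adjusted p = 0.0263). These 3 were also lower under median scaling, at -0.88, -0.775 and -0.705. Genes above the median level had a median of -0.38 with BaP there. Which scaling is nearer to the true levels was not tested. Of 19 genes of nucleic acid sensing, 1 fell with BaP, the adaptor gene Traf3 (-0.27, adjusted p = 0.0429), and 0 passed with DMBA. Of 15 negative regulators and nucleases, 2 rose with BaP, the signalling inhibitor gene Socs3 (0.30, adjusted p = 0.0257) and the ribonuclease subunit gene Rnaseh2c (0.30, adjusted p = 0.0197), though both turned lower under median scaling (-0.12 and -0.17).

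Of 43 further interferon-induced genes, 0 passed with DMBA, and 5 rose and 4 fell with BaP (4.82% and 5.9% of all genes). Between the compounds 1 was higher and 4 lower with BaP than with DMBA (0.671% and 0.783% of all genes). Ifi47, another immunity-related GTPase, was at 7.54, 7.65 and 7.55 with acetone, 8.01, 7.82 and 7.19 with DMBA, and 6.59, 6.42 and 6.68 with BaP. It fell by 1.02 with BaP (SE 0.09, adjusted p = 2.42e-09), below every other array, while the DMBA arrays lay on both sides of acetone. Ifi202b, a nucleic acid-binding protein gene, rose by 0.63 with BaP (adjusted p = 7.37e-06) and the membrane protein gene Ifitm1 by 0.58 (adjusted p = 5.83e-05), at 0.25 each and short of the test under median scaling. The other 3 that rose, Ly6e (0.37), Parp12 (0.34) and Ube2l6 (0.29), turned to -0.10, -0.03 and -0.09 there. Lgals9, a galectin gene, fell by 0.48 (adjusted p = 0.000484), Ifi205 by 0.39 (adjusted p = 0.00348) and the lysosomal reductase gene Ifi30 by 0.37 (adjusted p = 0.0102). Under median scaling they were at -0.95, -0.33 and -0.88, where genes above the median level had a median of -0.38 with BaP.

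Markers of immune cells were counted beside these genes. Of 18 macrophage and leukocyte markers, 2 rose with DMBA (0.704% of all genes), the complement genes C1qb (0.87, SE 0.13) and C1qc (0.64, SE 0.09). With BaP 11 of the 18 fell (5.9% of all genes). Under median scaling C1qb and C1qc were at 0.79 and 0.55, neither past the test. The 11 stayed lower there, where genes above the median level had a median of -0.38 with BaP. The summed signal of the 18 markers was 9757 to 10093 with acetone, 10175 to 12224 with DMBA and 7650 to 8262 with BaP, with no overlap between groups. The summed signal of the 36 members was 15636 to 16347 with acetone, 17144 to 19088 with DMBA and 16241 to 16909 with BaP. The members' sums were higher on every DMBA array than on any other, and those of acetone and BaP overlapped. A linear sum is weighted to bright genes, and the median member level overlapped between groups, at 6.97 to 7.04 with acetone, 7.02 to 7.20 with DMBA and 6.95 to 7.18 with BaP. Ptprc, the pan-leukocyte marker, was at 5.96, in the range of the Y-chromosome genes. Of 10 T and NK cell markers 9 were in that range, as were 3 of 4 plasmacytoid dendritic cell markers and 5 of 6 endothelial markers, and of the T, NK and dendritic cell markers limma called 0 in each comparison. Each sample is a whole ovary extract, so fewer cells of a type and less RNA per cell cannot be told apart. The part of these markers in the results of the members was not tested.

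**Figure D4:**
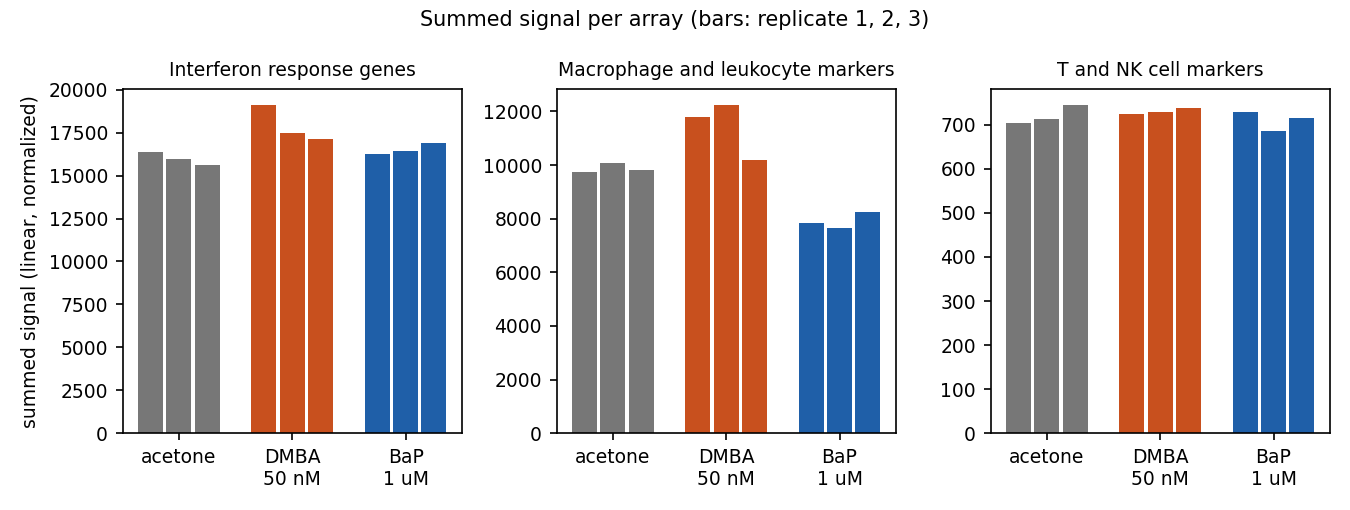
Summed normalized signal (linear scale, bars from 0) on each array for the 36 interferon response genes, 18 macrophage and leukocyte markers and 10 T and NK cell markers. The macrophage and leukocyte sums are lowest on the BaP arrays (7650 to 8262), while the members' sums on BaP arrays (16241 to 16909) overlap those of acetone.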

How the data were processed

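Per the file headers, a deposited table holds non-normalized probe intensity on a linear scale, and another holds normalized log2 values of the same arrays. The authors' deposited reports give, for each probe and compound, the linear ratio of the acetone mean over the treated mean and a p-value with no adjustment. The submitters' processing notes name lumi. What the scanner software subtracted and the model behind those p-values are not given in the sources used here. Value tables and reports were joined by matching log2 ratios (within 0.0001), which paired 25649 of 25697 probes. Names were updated through RefSeq, 23692 by accession, 852 by symbol and 434 by synonym, and 671 kept the deposited name.

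Intensity was corrected with normexp (offset 50), quantile normalized over 9 arrays and put on the log2 scale. The brightest probe of each gene was tested in limma 3.58.1 (R 4.3.3), on the 6 arrays compared, in a two-sided test. P-values were adjusted by Benjamini-Hochberg over every gene, with a threshold of 0.05, and all adjusted p-values are limma's. The fit was tested on simulated data. The number of arrays limits the precision. All measured members were described by role, with every array's value for those that passed and for the 5 largest differences per comparison. The members and lists were chosen with earlier results of these data known. Same-numbered arrays of different groups deviated together by correlations of -0.19 to 0.14, so the numbers were not taken as pairs. Alternatives were other scaling, background, filter, probe and array choices. Python 3.11.15 with pandas 2.3.3, numpy 2.4.6 and matplotlib 3.10.9 made joins and plots.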

Additional observations from a re-analysis of the deposited data

Results flagged for a closer look

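Igtp, the immunity-related GTPase gene, differed between the compounds in the direct test, at -0.55 for BaP against DMBA (log2, adjusted p = 0.0186 in limma). It is listed because it passed this direct test. Its difference from acetone was 0.51 with DMBA and -0.04 with BaP, at doses that differ. Groups of 3 arrays are too small for a test of single outlying arrays.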

How the results depend on the processing

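Median scaling in place of quantile normalization moved most. It gave 3 genes called for DMBA against acetone (181 as reported), 5130 for BaP against acetone (1918) and 2072 for BaP against DMBA (260). It gave 0 members higher with DMBA (3) and with BaP (2), 8 lower with BaP (0) and 9 lower with BaP than with DMBA (1), and member medians of -0.17 for BaP and -0.24 for BaP against DMBA. With BaP it turned Eif2ak2 to -0.19, Gbp3 to -0.43 and Irf9 to -0.42. No other member that passed in either setting changed sign. Without background correction DMBA called 115 genes and in the authors' log2 values 98. One fit of all 9 arrays called 297 with DMBA, 1083 with BaP and 452 between compounds. Every probe tested gave 4 member genes higher with BaP, and the filter to genes above the median level gave 1 member lower. The cause of these moves was not tested.

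With replicate number as a block, BaP against DMBA called 131 genes and 0 members (Igtp, adjusted p = 0.0884, over settings from 0.0032 to 0.128), and the block ended no other call of a member. Leaving out 1 array gave 23 (without acetone replicate 2) to 812 (without DMBA replicate 3) genes for DMBA, 1092 (without acetone replicate 2) to 1799 for BaP and 75 (without BaP replicate 3) to 798 (without DMBA replicate 3) between compounds. Members higher ranged from 0 to 6 with DMBA and 0 to 2 with BaP, members lower from 0 to 1 with BaP (1 without BaP replicate 1 or 3) and, between compounds, from 0 (without any BaP array) to 2 (without DMBA replicate 3). Depth in the sense of signal may limit the 16 members at or below the brightest Y-chromosome gene.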
